A study of Mus musculus with 6 samples.

Results

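The genes described here are 39 genes of glucose breakdown and of the response to low oxygen, chosen by a list of names with earlier results of these data known. They fall into 17 enzymes of glycolysis including lactate dehydrogenase, 7 transporters and kinases that control the flux through the pathway, and 15 hypoxia genes, of which 4 belong to oxygen sensing and 11 are known to be induced by hypoxia. Of the 39 genes, 36 had a probe set of their own on the array, out of 19938 genes in all. Gapdh was represented only by probe sets shared with other genes, and no probe set was listed to Gpi1 or Eno1 alone, so these 2 were not analysed here.

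RAW264.7 cells, a mouse macrophage line derived from a tumour induced by Abelson leukaemia virus, received either negative control mimics (control, 3 arrays) or miR-342-3p mimics (miR-342-3p, 3 arrays). A mimic is a short double-stranded RNA, made by chemical synthesis, from which the cell loads the mature strand. Both groups were plated at 500000 cells per well, went through the same transfection and gave total RNA 18 h later, and the labels name no further treatment. All values come from 1 cell line under transfection, so a cell that was never transfected was not measured. The replicate numbers come from the labels, which do not say whether the arrays stand for separate cultures. A figure legend of the study describes expression 18 h after mimic transfection as measured in 3 independent experiments. The p-values measure only the spread between these arrays.

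Glycolysis splits glucose into pyruvate in the cytosol, and activated or oxygen-starved macrophages draw much of their ATP from it and export the excess as lactate. Under low oxygen the prolyl hydroxylases encoded by the Egln genes stop marking the HIF alpha subunits for degradation, and HIF then binds hypoxia response elements beside genes of glucose uptake, glycolysis, blood vessel growth and mitophagy. Most glycolytic genes are therefore also counted among the HIF targets, and the comparison asked whether the enzymes and the other hypoxia genes moved alike in the presence of the mimic.

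The mature microRNA that the mimic stands for is shown because its seed, bases 2 to 8 and in capitals here, is the stretch that pairs with target messages. The sequence is that of RefSeq (GRCm38.p6, chr12:108658680-108658702, plus strand), 5′ to 3′.
mmu-miR-342-3p: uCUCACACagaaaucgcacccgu

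The 3 control arrays resembled each other more closely than the miR-342-3p arrays did. The correlation across genes was at least 0.9982 among the control arrays and 0.9909 to 0.9926 among the miR-342-3p arrays. The miR-342-3p replicate 3 was closer to the control arrays (0.9958 to 0.9961) than to miR-342-3p replicates 1 and 2 (0.9926 and 0.9917). Replicates 1 and 2 correlated with the control arrays at 0.9853 to 0.9877. The labelled cell type was checked with 10 macrophage markers, whose mean log2 value lay at 10.65 to 10.66 in the control arrays and at 10.5 to 10.68 in the miR-342-3p arrays. Within that list Itgam (log2 fold change -0.35) and Fcgr1 (-0.35) were downregulated, and Spi1 (0.35) and Mertk (0.32) were upregulated. The mean log2 value of 5 fibroblast markers was 6.91 to 6.97 in control and 7.05 to 7.37 in miR-342-3p arrays, with Pdgfra called higher at 0.49, and none of 6 lymphocyte or 4 epithelial markers was called. The miR-342-3p replicate 1 was highest in each of these lists, at 7.37 for the fibroblast, 5.85 for the lymphocyte (5.44 to 5.54 in control) and 6.83 for the epithelial markers (6.56 to 6.7 in control). It was lowest for the macrophage markers, and Egln3, Higd1a and the median of the enzymes also departed most from control in this array. RMA values have no true zero, so absence of a marker cannot be read from them, and the part of these shifts in the results was not tested.

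Of the 36 genes measured, 6 were downregulated, 3 were upregulated and 27 were not called at a false discovery rate (FDR) under 0.1. All fold changes are differences of log2 RMA values, miR-342-3p minus control. They were tested with limma over all genes and are given with their standard error (SE, n = 3 arrays per group). This SE is moderated by limma, so it also draws on the spread of the other genes. The share called was 25.0% of the genes measured, against 11.6% of all genes tested, where 7.42% were lower and 4.14% were higher. The 36 genes had a median value of 9.16 on the log2 scale against 7.15 for all genes, and the shares were not matched for this. At an FDR of 0.05 or less, 5 of the 36 were called, against 4.88% of all genes. Their median log2 fold change over the 36 was -0.0787, with 24 of 36 below 0, while the median of all genes was 0.069 and 35.5% of all genes lay below 0. All miR-342-3p arrays were below all control arrays in 13 of the 36 genes and above them in 7, while this held for 15.5% and 21.4% of all genes, 36.9% together. The arrays hold RNA of a whole culture, so fewer cells that express a gene and less RNA per cell cannot be told apart.

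**Figure D1:**
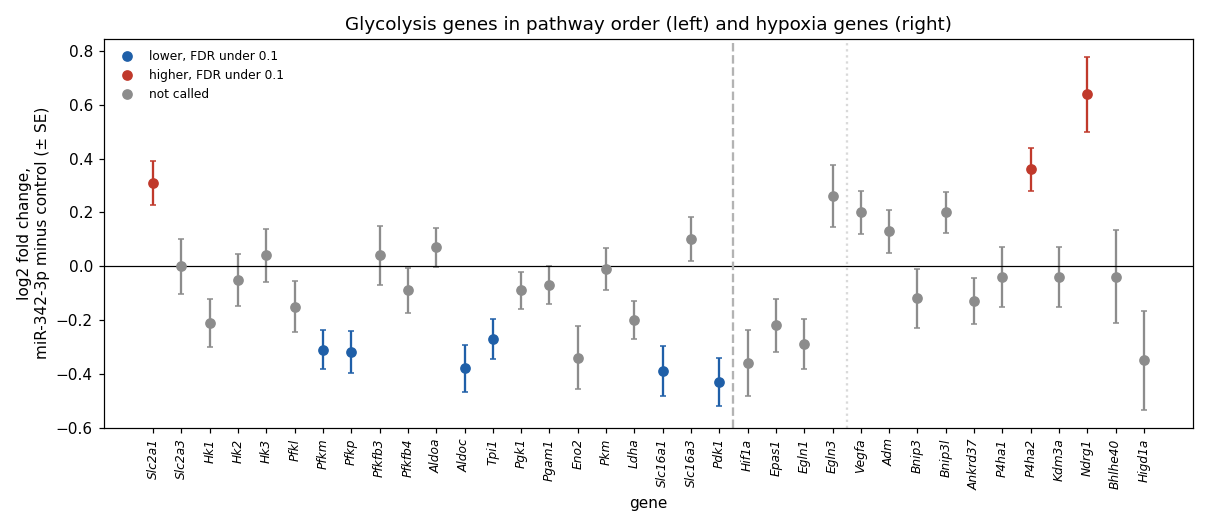
Log2 fold change (miR-342-3p minus control, points) with its SE (bars, n = 3 arrays per group) for the 36 genes measured, with glycolysis in pathway order left of the dashed line and oxygen sensing and hypoxia-induced genes on either side of the dotted line. The 6 genes called lower (blue) all lie left of the dashed line, from -0.27 for Tpi1 to -0.43 for Pdk1, and Ndrg1 at 0.64 is the highest of the 3 called higher (red).

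Among the glycolytic enzymes, 4 of the 14 measured were downregulated (28.6%, against 7.42% of all genes), 0 were upregulated and 10 were not called. At an unadjusted p under 0.05, 7 were lower and 0 were higher, both in limma and in a gene-by-gene test without moderation of the spread. Over all genes 13.0% were lower and 12.5% higher at this p in limma, and 9.81% and 10.4% in the other test. That other test left 0 enzymes called after adjustment. The 4 that fell encode phosphofructokinase isoforms (Pfkm, Pfkp), an aldolase (Aldoc) and triosephosphate isomerase (Tpi1). Their median log2 fold change over the 14 genes was -0.174, and 12 of 14 lay below 0. The enzymes had high values, at a median of 10.59 on the log2 scale against 7.15 for all genes. With genes of low value filtered out, 6 enzymes were lower and 0 higher, against 1952 and 1086 of the 9969 genes kept. The part of signal level in the share of enzymes called was not tested.

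Phosphofructokinase commits glucose to glycolysis and is the main site of its control, and 2 of its 3 isoform genes fell. Pfkm, the muscle isoform, read 8.64, 8.63 and 8.62 in control replicates 1 to 3 and 8.30, 8.39 and 8.26 in the miR-342-3p replicates. Every miR-342-3p array lay below every control array, and the log2 fold change was -0.31 ± 0.0736 (SE; FDR 0.0487), a decrease to 0.806 of control.

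Pfkp, the platelet isoform, read 10.51, 10.54 and 10.57 in control and 10.11, 10.28 and 10.26 in miR-342-3p arrays. The groups did not overlap here either, with replicate 1 lowest, and the log2 fold change was -0.32 ± 0.0786 (FDR 0.0542). Pfkl, the liver isoform, gave -0.15 ± 0.0934 (FDR 0.317) with overlapping groups and was not called.

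Aldolase cleaves fructose 1,6-bisphosphate into the trioses. Aldoc, an isoform best known from brain, read 10.97, 11.05 and 10.92 in control and 10.47, 10.70 and 10.63 in miR-342-3p arrays. All miR-342-3p arrays were lower, and its log2 fold change of -0.38 ± 0.0861 (FDR 0.0427) was the largest fall among the enzymes measured. Aldoa, the isoform of most tissues, read 12.75 in each control array and 12.80, 12.89 and 12.76 in miR-342-3p arrays, the largest rise among the enzymes at 0.07 ± 0.0735 (95% confidence interval -0.10 to 0.23, FDR 0.557).

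Tpi1 encodes triosephosphate isomerase, which interconverts the products of aldolase. It read 12.75, 12.77 and 12.80 in control and 12.55, 12.43 and 12.55 in miR-342-3p arrays. The groups were apart, with replicate 2 lowest, unlike the other enzymes that fell, and the log2 fold change was -0.27 ± 0.0739 (FDR 0.073).

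Of the hexokinases, which trap glucose in the cell as its phosphate, none was called. Hk2, the isoform induced by insulin and hypoxia, read 8.42, 8.43 and 8.43 in control and 8.31, 8.58 and 8.26 in miR-342-3p arrays. Its miR-342-3p arrays lay on both sides of control, and the 95% confidence interval of the log2 fold change ran from -0.26 to 0.17. Hk1 gave -0.21 ± 0.0899 (FDR 0.184) and Hk3 0.04 ± 0.0995 (FDR 0.779). The other probe set of Hk1, with a mean value of 12.57 against 9.5 for the one used, gave -0.0812. A further 16 probe sets that Hk1 shares with other genes gave -0.0814 to -0.0307. With the probe set of the highest mean used for each gene, the median of the enzymes was -0.119.

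None of the measured enzymes from phosphoglycerate kinase to lactate dehydrogenase was called, and neither were Pfkl, Aldoa and the hexokinases. Pgk1 (phosphoglycerate kinase, -0.09 ± 0.0699, FDR 0.424) and Pgam1 (phosphoglycerate mutase, -0.07 ± 0.0699, FDR 0.514) were lower in every miR-342-3p array than in any control array, but by small steps. Eno2, the neuronal enolase, gave -0.34 ± 0.118 (FDR 0.127) with replicate 2 at 8.24, close to the control values of 8.30, 8.30 and 8.26.

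Pkm, the pyruvate kinase of macrophages and of most proliferating cells, read 12.45, 12.42 and 12.51 in control and 12.43, 12.53 and 12.38 in miR-342-3p arrays. The groups overlapped, and the 95% confidence interval of the log2 fold change ran from -0.19 to 0.16. Ldha, which turns pyruvate into lactate, read 12.62, 12.63 and 12.60 in control and 12.39, 12.45 and 12.42 in miR-342-3p arrays. Its groups did not overlap, yet the log2 fold change of -0.20 ± 0.0699 missed the threshold (FDR 0.132).

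Gapdh, the triose dehydrogenase often used to scale expression, was measured by 25 probe sets that also match other genes, so its own level is uncertain. Their log2 fold changes ran from -0.0187 to 0.006 with a median of -0.0125. The median value over these probe sets was 13.23, 13.23 and 13.22 in control and 13.22, 13.22 and 13.19 in miR-342-3p arrays.

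Among the transporters and kinases that control flux, 2 of 7 were downregulated, 1 was upregulated and 4 were not called. That is 28.6% lower and 14.3% higher, against 7.42% and 4.14% of all genes, in a list of 7. Their median log2 fold change was 0.004. The upregulated gene encodes a glucose transporter, and the downregulated genes encode a transporter of lactate and pyruvate and a kinase that acts on pyruvate dehydrogenase.

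Slc2a1 encodes GLUT1, the glucose transporter of most cultured cells and a HIF target. It read 11.88, 11.89 and 11.84 in control and 12.18, 12.30 and 12.07 in miR-342-3p arrays. All miR-342-3p arrays were higher, and the log2 fold change was 0.31 ± 0.0818 (FDR 0.0624), 1.24-fold of control. With each array centred on its own median the change was 0.24 and the call was lost (FDR 0.138).

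Slc2a3 (GLUT3) gave 0.00 ± 0.102 with a 95% confidence interval of -0.23 to 0.24. Its miR-342-3p arrays fell on both sides of control, at 9.51, 9.83 and 9.49 against 9.65, 9.59 and 9.58.

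Slc16a1 encodes MCT1, which carries lactate and pyruvate across the plasma membrane. It read 10.20, 10.17 and 10.29 in control and 9.66, 9.95 and 9.88 in miR-342-3p arrays. The groups did not overlap, with replicate 1 lowest, and the log2 fold change was -0.39 ± 0.0939 (FDR 0.0514). Slc16a3, encoding MCT4, the lactate exporter known to be induced by hypoxia, gave 0.10 ± 0.082 (FDR 0.448).

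Pdk1 encodes a kinase that shuts off pyruvate dehydrogenase and so keeps pyruvate out of the mitochondrion, and it is a known HIF target. It read 8.23, 8.16 and 8.22 in control and 7.62, 7.85 and 7.86 in miR-342-3p arrays. Every miR-342-3p array was below every control array, and the log2 fold change of -0.43 ± 0.0887 (FDR 0.0336, 0.743 of control) was the largest fall among the 36 genes. Pfkfb3, whose product makes the activator of phosphofructokinase, read 8.26, 8.35 and 8.24 in control and 8.13, 8.55 and 8.27 in miR-342-3p arrays, with a 95% confidence interval of -0.22 to 0.29, and Pfkfb4 gave -0.09 ± 0.0831 (FDR 0.5).

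**Figure D2:**
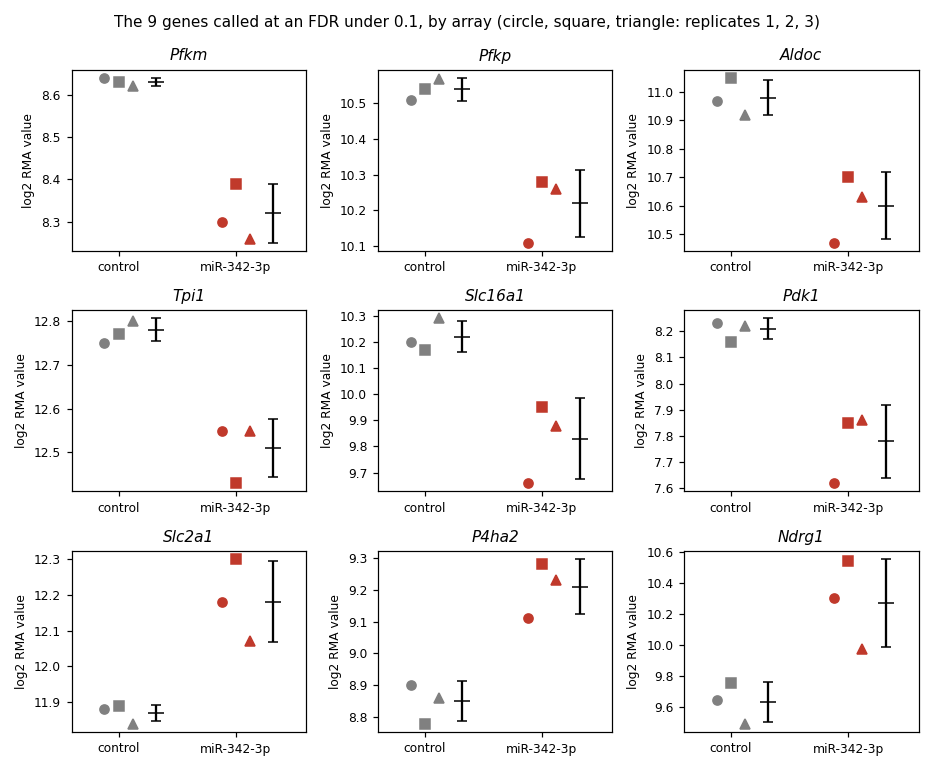
Log2 RMA value (vertical axis, a separate scale that does not start at 0 in each panel) of the 9 genes called at an FDR under 0.1 in the control (grey) and miR-342-3p (red) arrays, with the mean and SD of each group (bars, n = 3). No miR-342-3p array reaches into the control range in any of the 9 panels, and for Pfkp, Aldoc, Slc16a1 and Pdk1 the lowest array is replicate 1.

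In 4 pairs of isoforms a single one was called. Beside Aldoc, Slc16a1, Slc2a1 and P4ha2, a collagen hydroxylase gene described further on, the other isoform on the list lay within 0.10 of control on the log2 scale. The kinases of pyruvate dehydrogenase gave calls in both directions, since beside Pdk1 the neighbouring gene Pdk3 fell by 0.43 (SE 0.102, FDR 0.0514) and Pdk2 rose by 0.42 (SE 0.0985, FDR 0.0473) on the log2 scale. Pdk2 read 7.56, 7.50 and 7.65 in control and 7.87, 8.18 and 7.92 in miR-342-3p arrays. Pdk4, the isoform of fasting, gave 0.14 ± 0.121 (FDR 0.473), and the differences between isoforms were not tested themselves.

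**Figure D3:**
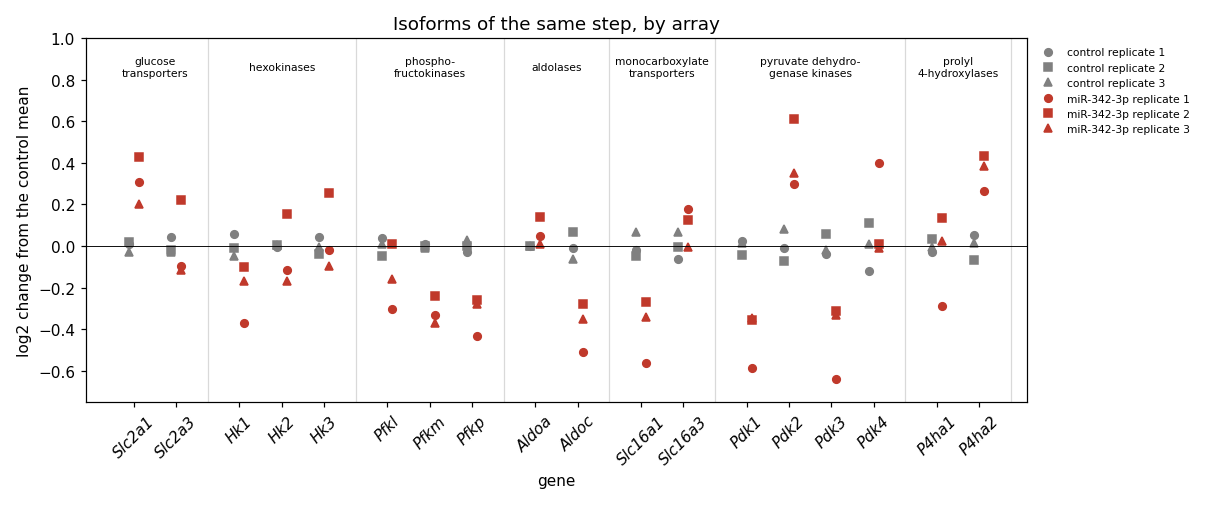
Log2 change from the control mean (vertical axis) in each control (grey) and miR-342-3p (red) array for isoforms of the same step, including Pdk2, Pdk3 and Pdk4 as neighbouring genes. Pdk2 lies above control in the 3 miR-342-3p arrays while Pdk1 and Pdk3 lie below it, and Aldoa stays near 0 where Aldoc falls.

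Of the 15 hypoxia genes, 0 were downregulated, 2 were upregulated (13.3%, against 4.14% of all genes) and 13 were not called. At an unadjusted p under 0.05, 3 were lower and 4 were higher in limma, and a gene-by-gene test without moderation of the spread gave 1 lower and 4 higher, with 0 left after adjustment. These counts stand against the same 13.0% lower and 12.5% higher of all genes in limma, and 9.81% and 10.4% in the other test. Their median log2 fold change was -0.0391, and 9 of 15 lay below 0.

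The oxygen sensing genes held no call, with a median of -0.256 over 4 genes. Hif1a, the oxygen-regulated subunit of HIF-1, read 10.88, 10.90 and 10.85 in control and 10.56, 10.24 and 10.76 in miR-342-3p arrays. The groups did not overlap, but replicate 2 lay far below replicate 3, and the log2 fold change of -0.36 ± 0.123 was not called (FDR 0.121). Without replicate 3 of the miR-342-3p group it was -0.48 (FDR 0.0294). With each array left out in turn it ran from -0.48 to -0.22, and 4 of the 15 alternatives called it. HIF activity is controlled mainly through the stability of the protein, which these arrays do not measure.

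Egln1 (PHD2), the main oxygen sensor of the family, gave -0.29 ± 0.0919 and lay just outside the threshold (FDR 0.102), with 9.20, 9.23 and 9.20 in control and 8.74, 9.04 and 8.97 in miR-342-3p arrays. Egln3 (PHD3), itself a HIF target, read 5.98, 6.15 and 5.99 in control and 6.54, 6.23 and 6.12 in miR-342-3p arrays. It gave the largest rise of the sensing genes at 0.26 ± 0.115 (FDR 0.201), with overlapping groups and replicate 1 highest. All its values lay below 7.15, the median over all genes. Epas1, encoding HIF-2 alpha, gave -0.22 ± 0.098 (FDR 0.195).

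Of the 11 hypoxia-induced genes, 2 were upregulated and 0 were downregulated, with a median of -0.036. Ndrg1, a stress-responsive gene that rises under hypoxia in many cell types, read 9.64, 9.75 and 9.49 in control and 10.30, 10.54 and 9.97 in miR-342-3p arrays. All miR-342-3p arrays were higher, with replicate 3 nearest to control, and the log2 fold change of 0.64 ± 0.14 (FDR 0.0383, 1.56-fold) was the largest change among the 36 genes.

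P4ha2 encodes a catalytic subunit of collagen prolyl 4-hydroxylase. It read 8.90, 8.78 and 8.86 in control and 9.11, 9.28 and 9.23 in miR-342-3p arrays. The groups were apart, and the log2 fold change was 0.36 ± 0.08 (FDR 0.0407, 1.28-fold). P4ha1, the other subunit on the list, gave -0.04 ± 0.111 (FDR 0.802) with miR-342-3p arrays on both sides of control.

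Vegfa, the growth factor of blood vessels, read 6.92, 7.07 and 7.03 in control and 7.20, 7.29 and 7.13 in miR-342-3p arrays. The groups did not overlap, and the log2 fold change was 0.20 ± 0.0806 (FDR 0.166). Bnip3 and Bnip3l, receptors of mitophagy, gave -0.12 and 0.20. Bnip3 read 8.94, 8.85 and 8.72 in control and 8.54, 8.93 and 8.69 in miR-342-3p arrays, with overlap and a 95% confidence interval of -0.37 to 0.14, whereas the miR-342-3p arrays of Bnip3l were all above control (SE 0.0762, FDR 0.154).

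The largest fall in this group was Higd1a, a mitochondrial protein gene, at -0.35 ± 0.185 (FDR 0.258). It read 6.83, 6.69 and 6.80 in control and 5.93, 6.76 and 6.58 in miR-342-3p arrays, so that the low mean came from replicate 1, and its other probe set gave -0.156. Adm (adrenomedullin, 0.13), Ankrd37 (-0.13), Kdm3a (a histone demethylase, -0.04) and Bhlhe40 (a transcriptional repressor, -0.04) were not called, with FDR from 0.325 to 0.9.

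Set side by side, the enzymes were lower than the hypoxia genes in the miR-342-3p replicates 2 and 3 but not in replicate 1. The median change from the control mean of the 14 enzymes was -0.229, -0.0762 and -0.169 in replicates 1 to 3. That of the 15 hypoxia genes was -0.23, 0.109 and 0.0244, and that of all genes 0.113, 0.0363 and 0.0251. The median of the enzymes lay below the median of all genes in each of the 3 arrays, and 13, 9 and 13 of the 14 were below their control mean. The difference between the groups was 0.00125, -0.185 and -0.194 in the 3 arrays, given here without a test because the members were chosen with earlier results known and are not replicates.

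**Figure D4:**
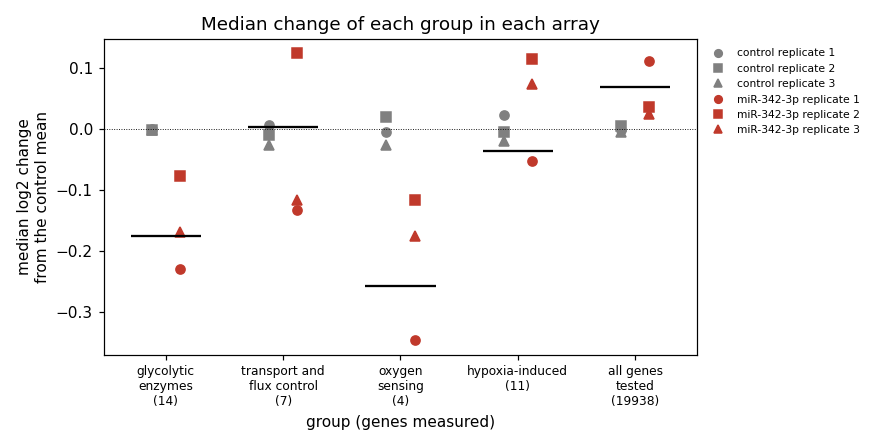
Median log2 change from the control mean (vertical axis) over the genes of each group in each control (grey) and miR-342-3p (red) array, with the median of the fitted fold changes as a black line. The enzymes lie at -0.229, -0.0762 and -0.169 in the 3 miR-342-3p arrays, the grey points of the enzymes coincide near 0, and the medians of the transport and hypoxia-induced groups lie on both sides of 0.

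Of 31 further genes of glycolysis, pyruvate handling and the pentose phosphate pathway, 3 were downregulated, 1 was upregulated and 27 were not called, with a median of 0.0272. The shares of 9.68% lower and 3.23% higher were near the 7.42% and 4.14% of all genes. Besides Pdk3, these were Rpe, a pentose phosphate epimerase (-0.44 ± 0.11, FDR 0.0562), and Bpgm, which makes 2,3-bisphosphoglycerate (-0.32 ± 0.0791, FDR 0.055), while Pdk2 was the gene that rose.

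Of 36 further hypoxia pathway genes, 1 was downregulated, 3 were upregulated and 32 were not called, with a median of 0.115. Hilpda, which blocks lipid breakdown in lipid droplets, read 8.92, 8.53 and 8.84 in control and 10.32, 10.59 and 9.91 in miR-342-3p arrays. The miR-342-3p arrays were all higher, and the log2 fold change was 1.51 ± 0.169 (FDR 0.00723). Hmox1, the haem oxygenase that also answers to oxidative stress, gave 0.92 ± 0.099 (FDR 0.00685).

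Ddit4, an inhibitor of mTORC1 that also answers to other stresses, gave 0.52 ± 0.107 (FDR 0.0332). Plod1, a collagen lysyl hydroxylase, fell by 0.31 (SE 0.0785, FDR 0.0592) on the log2 scale. The shares called in this list, 2.78% lower and 8.33% higher, stand against 7.42% and 4.14% of all genes.

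The promoters of 4 called genes are shown because HIF binds hypoxia response elements, whose core is ACGTG or GCGTG. Each stretch is the 250 bases before a RefSeq transcription start (GRCm38.p6), 5′ to 3′ on the strand of the gene, with each match to either core on either strand in capitals.
Slc2a1, chr4:119108495-119108744, plus strand: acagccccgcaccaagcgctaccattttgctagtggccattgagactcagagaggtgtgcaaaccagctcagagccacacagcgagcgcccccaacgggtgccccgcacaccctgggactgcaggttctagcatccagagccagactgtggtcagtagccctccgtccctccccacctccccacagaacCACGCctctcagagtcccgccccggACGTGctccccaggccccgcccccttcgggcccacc
P4ha2, chr11:54100674-54100923, plus strand: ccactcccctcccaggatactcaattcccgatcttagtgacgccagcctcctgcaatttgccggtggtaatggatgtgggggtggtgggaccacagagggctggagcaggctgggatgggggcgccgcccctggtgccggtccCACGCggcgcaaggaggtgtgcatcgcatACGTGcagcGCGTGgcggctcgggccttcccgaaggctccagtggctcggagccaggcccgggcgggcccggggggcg
Slc16a1, chr3:104638414-104638663, plus strand: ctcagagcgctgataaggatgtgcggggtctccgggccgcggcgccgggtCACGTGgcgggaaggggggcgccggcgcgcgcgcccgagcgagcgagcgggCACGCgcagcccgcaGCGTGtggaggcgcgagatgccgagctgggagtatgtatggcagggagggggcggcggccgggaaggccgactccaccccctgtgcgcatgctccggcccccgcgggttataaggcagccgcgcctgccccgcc
Pfkp, chr13:6648772-6649021, minus strand: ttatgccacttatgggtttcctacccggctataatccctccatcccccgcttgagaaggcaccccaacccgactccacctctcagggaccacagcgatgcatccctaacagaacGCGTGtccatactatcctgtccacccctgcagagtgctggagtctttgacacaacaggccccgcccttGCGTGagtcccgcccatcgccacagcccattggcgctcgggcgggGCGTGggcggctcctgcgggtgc
Slc2a1 and P4ha2, which rose, hold 1 match to ACGTG each, with 1 and 2 matches to GCGTG. Slc16a1, which fell, holds 2 matches to ACGTG that overlap in 1 palindrome and 2 to GCGTG, and Pfkp, which also fell, holds 3 to GCGTG and none to ACGTG. The palindrome CACGTG is at the same time an E-box, to which MYC and other factors bind. The 4 promoters shown all hold a match, whereas that of Tpi1, which fell, holds none to either core and is not shown. Of the 8 called genes with a promoter sequence, 7 had a match to either core in at least 1 promoter.

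Of the 39 genes, 34 had an entry in the promoter table, and 31 of them (91.2%) had a match to either core in at least 1 promoter, compared with 41.5% of all genes in the table. Counted by promoter, it was 78.0% of 50 against 38.6% of 32851. For ACGTG alone it was 58.8% of the 34 genes against 18.5% of all genes, and for GCGTG alone 67.6% against 30.9%. Of the genes measured, the 20 with ACGTG had a median log2 fold change of -0.0453 (2 lower, 2 higher) and the 11 without it -0.266 (4 lower, 0 higher). The 21 with GCGTG had -0.134 (5 lower, 2 higher) and the 10 without it -0.0305 (1 lower, 0 higher). Over all genes 7.42% were lower and 4.14% higher. Of the 11 without ACGTG, 6 were enzymes, where the medians were -0.0585 with it and -0.293 without. For transport and flux genes they were 0.0663 and -0.258, and for hypoxia genes -0.0797 and -0.0391. Motif apart from list was not tested. The genes of the table were not matched to the members in base composition or expression, and the members were listed as glycolysis or hypoxia genes beforehand. A match describes letters in a window and is not a binding site, and no match says nothing of binding elsewhere.

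The 9 calls stood near the threshold, between an FDR of 0.0336 and 0.073. All 9 were lost when any 1 of the 3 control arrays was left out, and the calls over all genes then numbered 102 to 140 lower and 88 to 100 higher in place of 1479 and 825. The direction of each of the 9 held under the 15 alternatives tried. With any 1 miR-342-3p array left out, all 9 were called.

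**Figure D5:**
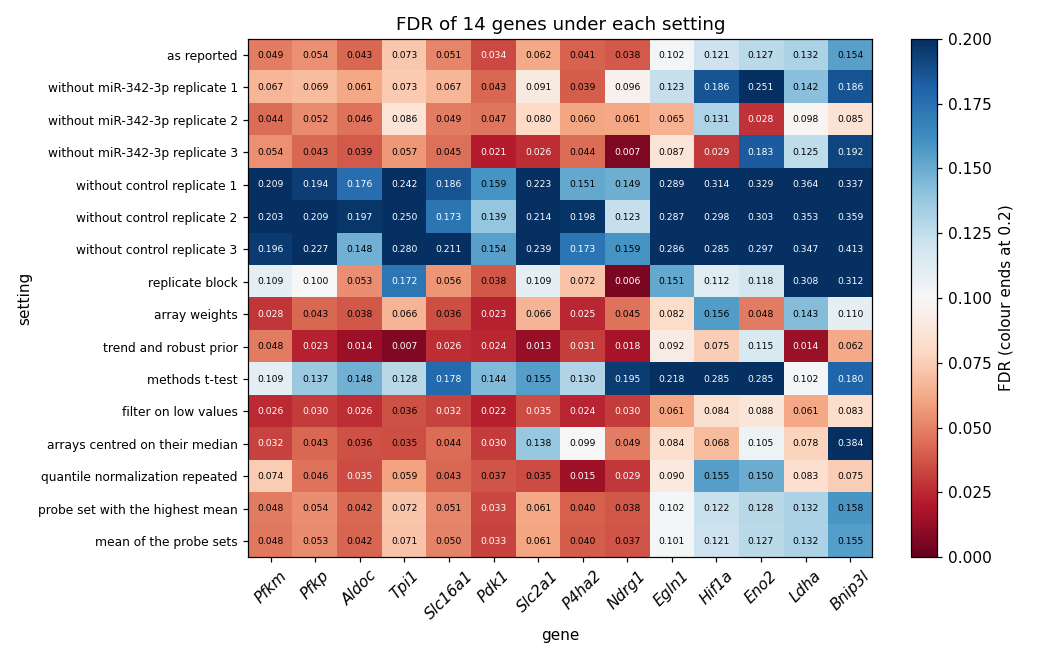
FDR (colour and printed value, colour scale ending at 0.2) of the 9 genes called and of 5 genes near the threshold (columns) under the reported fit and 15 alternatives (rows). The rows without a control array and the row of the test without moderation stay above 0.1 for the 9 genes, while Egln1 and Ldha turn red under several alternatives.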

How the data were processed

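RAW264.7 cells were transfected with negative control or miR-342-3p mimics (3 arrays each), and 150 ng of RNA was amplified, labelled and hybridised to Affymetrix mouse gene arrays. The authors processed the scans with RMA, which adjusts background, quantile-normalizes and summarizes probes, and deposited 1 log2 value for each of 35556 probe sets and array. Which version of RMA was used is not stated in the labels or the methods.

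Of the probe sets, 21789 were annotated to 1 gene, 1621 to several and 12146 to none, and 21698 matched a RefSeq gene (GRCm38.p6) by Entrez ID. For 999 genes with several probe sets the one with the largest interquartile range was used, as in the study's methods, which left 19938 genes. The test was limma's (version 3.58.1, lmFit then eBayes, under R version 4.3.3, with 4 residual and 4.79 prior degrees of freedom), with p-values adjusted by Benjamini and Hochberg and genes called at an FDR under 0.1. Confidence intervals use the same degrees of freedom. The script was tested on simulated data. Figures were drawn with matplotlib version 3.10.9.

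Groups and replicate numbers were taken from the labels. No pair of arrays held identical values, array medians differed by at most 0.151, and the small number of arrays limits the precision. The gene lists and members were chosen with earlier results of these data known, so no p was computed over a list. Values in every array are given for each member called, for Slc2a1, Hk2, Pfkfb3, Gapdh, Pkm, Ldha, Pdk1, Hif1a, Egln3, Vegfa and Bnip3, and for the largest rise and fall of each role. From the neighbouring lists, at most 4 called genes are named in the commoner direction and at most 2 in the opposite one, by size of change. Genes named beyond these, such as Egln1 and Eno2, were picked after their values were seen. Alternatives left out each array, blocked on replicate number, weighted arrays, and used a trend and robust prior or a gene-by-gene t-test without moderation. Others repeated or changed the normalization, filtered low values and chose probe sets differently.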

Additional observations from a re-analysis of the deposited data

How the results depend on the processing

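The 15 alternatives reversed the direction of none of the 9 members called. Without 1 control array no member was called, and the counts ran, over all arrays left out in turn, from 0 to 6 for enzymes lower, from 0 to 2 and 0 to 1 for transport and flux genes lower and higher, and from 0 to 3 for hypoxia genes lower and again 0 to 3 higher. Over all genes they ran from 102 to 2422 lower and 88 to 2104 higher, for the other glycolysis genes from 0 to 5 and 0 to 3, and for the other hypoxia genes from 0 to 3 and 2 to 9. The median of the enzymes ran from -0.219 to -0.115 and that of the hypoxia genes from -0.118 to 0.0702. Without miR-342-3p replicate 2, Eno2 (-0.48, FDR 0.0276), Ldha (-0.21, FDR 0.0978), Egln1 (-0.35, FDR 0.0649), Bnip3l (0.24, FDR 0.0853), Epas1 (-0.30, FDR 0.0866) and Bhlhe40 (-0.27, FDR 0.0796) were called, and without replicate 3, Hif1a (-0.48, FDR 0.0294), Egln1 (-0.32, FDR 0.0873) and Egln3 (0.34, FDR 0.0922).

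After the group mean of each gene was subtracted, arrays that share a replicate number correlated at -0.308 to -0.106. In these deviations 0 of 6 arrays correlated best with their own number, so the numbers pair nothing that the data show. With the replicate block, 2 enzymes were lower and 0 transport genes higher, with Pfkm (FDR 0.109), Tpi1 (0.172) and Slc2a1 (0.109) no longer called.

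The scale moved the balance of calls over all genes. Lower ones made up 64.2% of calls as deposited, 84.2% with arrays centred on their median and 43.8% with quantile normalization repeated, while the median of all genes went from 0.069 to -0.00122 and 0.0897. With centring, 2 hypoxia genes were lower, 0 transport genes higher, 3 other hypoxia genes lower and 376 genes higher in all. Repeated quantile normalization gave 1 hypoxia gene lower, 3 other glycolysis genes higher, 2 other hypoxia genes lower and 11 higher, and 1826 genes higher in all. Array weights gave 1 hypoxia gene lower and 2 other glycolysis genes higher. The filter on low values removed Egln3, Vegfa, Adm, Ankrd37 and Higd1a, and also genes of the neighbouring lists. Among the genes left it gave 2 hypoxia genes lower and 3 higher, and 2 other glycolysis genes higher. It gave 3 lower and 8 higher among the other hypoxia genes. Among the 9969 genes that it kept, 1952 were lower and 1086 higher, with a median of -0.0241. The trend and robust prior gave 2 hypoxia genes lower, 2 other glycolysis genes higher and 2 other hypoxia genes lower.

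The gene-by-gene t-test without moderation called 0 members and 0 genes of either neighbouring list, with 22 lower and 26 higher over all genes. At an unadjusted p under 0.05 it gave 10 members lower and 5 higher (12 and 5 in limma). For its arrays the study describes limma, which is the reported fit here. At an FDR of 0.05 or less, 2 enzymes and 1 transport gene were lower, 0 transport genes were higher, 0 genes of either neighbouring list were lower, and 661 and 312 genes were lower and higher in all. At 0.01 or less no member was called, nor any other glycolysis gene, 0 other hypoxia genes were lower, and 19 and 33 genes were lower and higher in all. With transport and flux genes added to the enzymes, 1 was higher and the median was -0.0874. The causes of these shifts were not tested.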

Other observations

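The genes named here were picked after their values were seen, and none of them but Rpe was called. Among the pentose phosphate enzymes Rpe was downregulated (-0.44, FDR 0.0562) and Rpia (-0.17), Pgls (-0.06) and Pgd (0.03) were not called. Tkt (transketolase) gave 0.31 ± 0.106 (SE, n = 3 arrays per group; limma FDR 0.117) and Taldo1 (transaldolase) 0.31 ± 0.145 (FDR 0.211), with miR-342-3p replicate 2 highest for Tkt and Taldo1 and all miR-342-3p arrays above control. Among the glycogen genes, the synthase Gys1 read 9.28, 9.20 and 9.21 in control and 9.43, 9.77 and 9.41 in miR-342-3p arrays (0.30 ± 0.106, FDR 0.126). The branching enzyme Gbe1 gave 0.21 ± 0.0896 (FDR 0.188).

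Among the partners and regulators of HIF that were not called, Arnt, the constitutive subunit, gave 0.23 ± 0.0892 (FDR 0.148). Vhl, part of the ligase that destroys HIF alpha, gave 0.25 ± 0.114 (FDR 0.203) and Egln2 gave 0.38 ± 0.146 (FDR 0.148), each above control in all miR-342-3p arrays and highest in replicate 2. Hif1an, the asparaginyl hydroxylase that blocks HIF activity, read 8.31, 8.37 and 8.28 in control and 7.84, 8.67 and 8.21 in miR-342-3p arrays, which lie on both sides of control.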
